A study of Homo sapiens with 6 samples.

Results

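The invasive glioblastoma line U87MGR was compared with its parent line, U87MG, across the genes of an expression array. U87MG is an established human glioblastoma cell line, bought from ATCC for this study, and the labels call its U87MGR derivatives highly invasive. The 4 arrays of the 6 in the series that carry these titles were used: 2 arrays of U87MG (replicates 1 and 2) and the arrays titled U87MGR2 and U87MGR3 (taken here as U87MGR replicates 1 and 2). The remaining 2 arrays hold U87MGL, a derivative that the labels call non-invasive. They entered the fit to estimate the spread between arrays and are set beside leading results. U87MGR and U87MGL both went through 4 rounds of transplantation into the left striatum of BALB/c nu/nu mice, which lack T cells, at 6 weeks of age, with tumour-bearing brain dissociated and the cells returned to culture in DMEM with serum after each round. No such passage is given for the parent line, so passage and the invasive trait cannot be told apart in this comparison. The labels give U87MGR2 and U87MGR3 as separate cell lines with 1 array each and call them biological replicates 1 and 2. They do not say what the numbers 2 and 3 mark or whether the lines were cloned, so the spread within U87MGR is that between these lines.

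Glioblastoma cells spread through brain along vessels and white matter tracts, and they do so by loosening contacts with neighbours, remodelling the actin cytoskeleton and cutting or replacing the extracellular matrix. U87MG is known in mouse brain for compact tumours with a sharp border, which makes a diffusely invading derivative useful for asking which genes differ. Growth and the display of antigens to immune cells are further traits in which glioma lines can vary. Cell cycle, antigen presentation, inflammation and metabolism were therefore described alongside adhesion and matrix.

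Values are log2 signals of probe sets, normalized between arrays before deposit, so that a difference of 1 is a factor of 2 in signal. Per-array values are given with replicate 1 first, and each log2 fold change (U87MGR minus U87MG, 2 arrays each) with its SE after the ± sign. A signed value of a gene or list with no other unit is a log2 fold change. Each gene is represented by the probe set with the highest mean over the 6 arrays, and 14513 of 19775 genes had a mean of at least 4.73, the signal required for a test. Array medians lay between 5.29 and 5.35. The SD over genes of the difference between replicate arrays was 0.45 in U87MG and 0.34 in U87MGR. Spiked-in control transcripts split the arrays: U87MGR2 lay with both U87MGL arrays, U87MGR3 with U87MG replicate 1, and U87MG replicate 2 alone. U87MGR3 minus U87MG replicate 1 is therefore the difference between arrays with like spike-in levels, and it is given beside the leading lists. Separate cultures are not named in the labels, so p-values measure the spread among these arrays. The host brain was mouse and the probes are human. Of 6 microglial markers none was called by limma, and 3 of them (PTPRC, CX3CR1 and TYROBP) were below the test signal and not tested. The log2 of the 6 markers' summed signal was 8.36 and 8.41 in U87MG and 8.45 and 8.41 in U87MGR. Vimentin (VIM), an intermediate filament of mesenchymal-type glioma cells, was near the top of the scale, at 14.45 and 14.30 against 14.46 and 14.43. GFAP, the astrocyte filament, was low at 5.35 and 5.45 against 5.25 and 5.24.

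In U87MGR 270 genes were higher than in U87MG and 209 were lower at an adjusted p under 0.05 (limma, Benjamini-Hochberg over 14513 genes), which is 1.86% and 1.44% of the genes tested and 3.3% in either direction. The median of all fold changes was -0.01 on the log2 scale. Genes called higher had a median fold of 2.32 (range 1.65 to 23.9), and 22 of them reached 4-fold. Genes called lower had a median fold of 2.46 (range 1.71 to 46.0), and 39 reached 4-fold. In the pair of arrays with like spike-in levels the median log2 differences of these genes were 1.12 and -1.39. Both arrays entered the fit that called the genes, so these medians are no separate check. With 2 spike-in groups as a block, 5 genes were called higher and 6 lower (5 and 5 of them among the 270 and 209), and with 3 groups 96 and 135 (42 and 57 of them). The 2-group block sets U87MGR3 against both parental arrays and gives the same fold changes as leaving out U87MGR2. The 3-group block sets U87MGR3 against U87MG replicate 1 alone, so its fold changes are those of that pair. Neither block is therefore a separate check. The number of calls depended on having both U87MGR arrays: 5 higher and 6 lower genes passed without U87MGR2, and 1 and 0 without U87MGR3. Without U87MG replicate 1 the counts were 486 and 391, and without replicate 2 they were 150 and 152. The same dependence applies to each count of called list members below. Each such count is to be read beside the 1.86% and 1.44% of all genes tested.

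**Figure D1:**
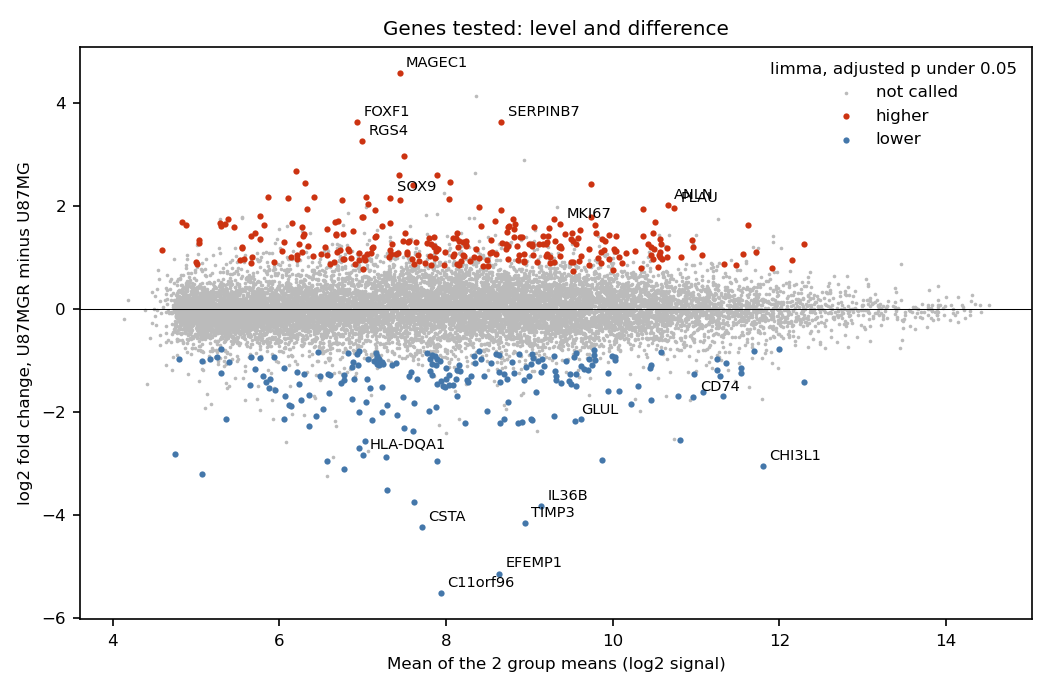
Each point is 1 tested gene, with the mean of the U87MG and U87MGR group means (log2 signal) on the horizontal axis and the log2 fold change, U87MGR minus U87MG, on the vertical axis. Red points are the genes called higher and blue points the genes called lower (limma, adjusted p under 0.05); the largest falls, to -5.52, exceeded the largest rises, to 4.58.

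The largest rise was in MAGEC1, a cancer-testis antigen that is normally expressed in the male germ line. Its log2 signal was 5.20 and 5.11 in U87MG and 9.38 and 10.09 in U87MGR, a 23.9-fold rise (log2 fold change 4.58 ± 0.24, adjusted p = 0.00414). Both U87MG arrays sat just above the test signal and both U87MGR arrays were far above them; the U87MGL arrays, at 6.93 and 7.14, lay between. MAGEC1 was also the only gene that still passed with either U87MGR array removed. The related MAGEC2 read 6.14 and 5.75 in U87MG and 7.50 and 8.73 in U87MGR (log2 fold change 2.17 ± 0.39, adjusted p = 0.0371), and MAGEA1 read 5.97 and 5.43 in U87MG and 7.87 and 7.75 in U87MGR (log2 fold change 2.11 ± 0.38, adjusted p = 0.0383). In these genes, too, the groups did not overlap, as in 48.4% of all genes tested. Of 29 cancer-testis genes on the array, 15 were below the test signal. Of the 14 tested 3 rose (21.4% against 1.86% of all genes) and 0 fell. In U87MGL minus U87MG 5 of the 14 rose and 0 fell, where 3.02% of all genes rose. The list's median was 0.48 there and 0.41 in U87MGR minus U87MG. Between the derivatives the median was -0.06, with 1 gene higher in U87MGR and 0 lower.

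Next in size were a serpin, a transcription factor and a signalling regulator. SERPINB7, an intracellular serine protease inhibitor, read 7.16 and 6.54 in U87MG and 10.45 and 10.51 in U87MGR and rose 12.4-fold (log2 fold change 3.63 ± 0.37, adjusted p = 0.0137). FOXF1, a forkhead factor of mesenchyme, read 5.30 and 4.93 in U87MG and 8.12 and 9.37 in U87MGR and rose 12.3-fold (log2 fold change 3.63 ± 0.49, adjusted p = 0.0207). RGS4, which shortens signalling by G proteins, read 5.53 and 5.19 in U87MG and 8.20 and 9.05 in U87MGR and rose 9.61-fold (log2 fold change 3.26 ± 0.30, adjusted p = 0.0121). In FOXF1 and RGS4 the U87MGR3 array was the higher of its pair, while the SERPINB7 arrays of U87MGR nearly coincided. SOX9, a transcription factor of glial progenitors and cartilage, read 6.21 and 6.30 in U87MG and 7.90 and 8.93 in U87MGR (log2 fold change 2.16 ± 0.31, adjusted p = 0.0239), with 0.69 on another probe set. The enzyme DDAH1, which breaks down inhibitors of nitric oxide synthase, rose 7.77-fold on its main probe set (6.50 and 5.53 against 8.73 and 9.22), but another probe set of the gene gave -0.20. The RNA-binding protein gene RBMS3 read 5.15 and 5.04 in U87MG and 7.28 and 7.79 in U87MGR (log2 fold change 2.44 ± 0.20, adjusted p = 0.00949), and the bicarbonate cotransporter SLC4A4 rose 6.06-fold (7.12 and 6.07 against 9.15 and 9.23). TGM2, a crosslinking transglutaminase, was already abundant in the parent line and rose 5.35-fold, from 8.74 and 8.33 to 10.77 and 11.13. SERPIND1 (heparin cofactor II), ABLIM1 (an actin-binding protein) and CTHRC1 (a secreted protein with a collagen-like stretch) rose by 2.67, 2.18 and 2.17 on the log2 scale, with 0.03 on another ABLIM1 probe set. COL13A1 (a transmembrane collagen), EPHA2 and C18orf54 completed the 16 largest rises at 2.46, 2.41 and 2.59. Other probe sets gave smaller rises, 0.52 and 0.74 for COL13A1 and 1.08 and 0.89 for C18orf54.

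The largest falls included genes of secreted, matrix and protease inhibitor proteins. C11orf96 read 11.35 and 10.04 in U87MG and 5.12 and 5.23 in U87MGR, a 46.0-fold fall (log2 fold change -5.52 ± 0.39, adjusted p = 0.00762). EFEMP1 (fibulin-3), a secreted matrix protein, read 11.19 and 11.22 in U87MG and 6.53 and 5.61 in U87MGR and fell 35.2-fold (log2 fold change -5.14 ± 0.48, adjusted p = 0.0121). TIMP3, a matrix-bound inhibitor of metalloproteinases, read 11.79 and 10.27 in U87MG and 7.77 and 5.98 in U87MGR and fell 17.8-fold (log2 fold change -4.16 ± 0.65, adjusted p = 0.0281). Replicates of TIMP3 were more than 1 log2 unit apart in both lines, yet the lowest U87MG array stood above the highest U87MGR array. CSTA (cystatin A), an inhibitor of cysteine proteases, read 10.15 and 9.50 in U87MG and 6.21 and 4.97 in U87MGR (log2 fold change -4.24 ± 0.40, adjusted p = 0.0125). PPL (periplakin), which links desmosomes to intermediate filaments, read 9.46 and 9.52 in U87MG and 5.78 and 5.69 in U87MGR (log2 fold change -3.75 ± 0.68, adjusted p = 0.0384). CHI3L1 (YKL-40), a secreted glycoprotein used as a marker of mesenchymal glioblastoma, was among the most abundant transcripts of the parent line and fell 8.31-fold, from 13.35 and 13.32 to 10.46 and 10.10 (adjusted p = 0.0185). It remained well above the array median in U87MGR. CH25H, the cholesterol 25-hydroxylase, read 9.41 and 9.31 in U87MG and 6.32 and 6.50 in U87MGR (log2 fold change -2.95 ± 0.22, adjusted p = 0.00762), and the secreted peptide gene NMB (neuromedin B) fell 7.65-fold to 8.38 and 8.42 (log2 fold change -2.94 ± 0.25, adjusted p = 0.00949). IGDCC4, a cell surface protein of the immunoglobulin superfamily, and the phosphodiesterase-family gene ENPP5 ended below the test signal in both U87MGR arrays, at 3.30 and 3.63 and 3.34 and 3.34, from 6.84 and 6.49 and 6.52 and 5.78. PPP1R14C, an inhibitor of protein phosphatase 1, and DAPL1 fell 8.66-fold and 7.78-fold.

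**Figure D2:**
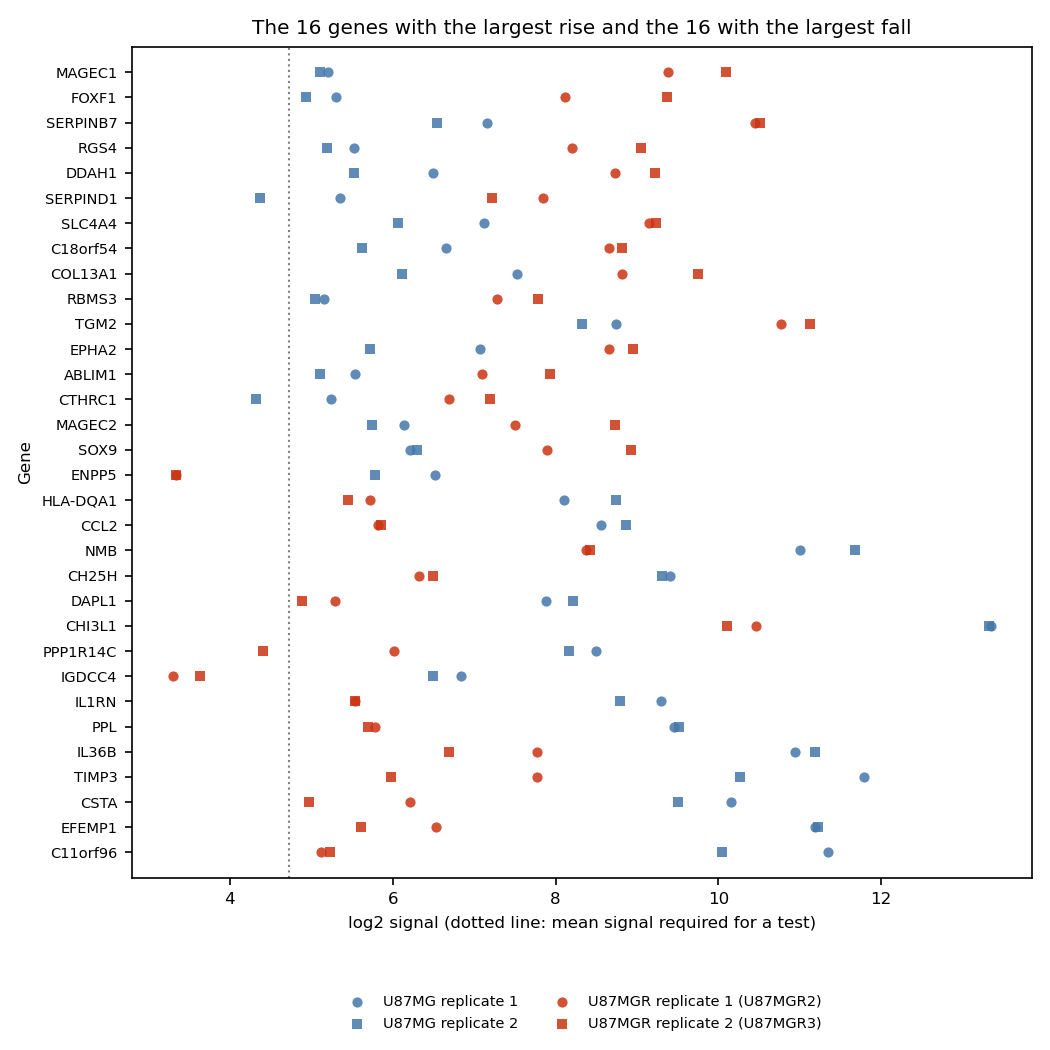
Log2 signal (horizontal axis) of the 16 genes with the largest rise and the 16 with the largest fall (vertical axis), with 1 point per array, blue for U87MG and red for U87MGR; circles are replicate 1 and squares replicate 2. The rows were drawn from genes whose blue and red points are separated, so the separation was fixed by the choice. The distance between replicates of a line ranges from nearly 0 (PPL) to more than 1 log2 unit (TIMP3, PPP1R14C).

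Many genes of mitosis rose. Of 67 tested genes for the spindle, kinetochore and cytokinesis, 29 rose and 0 fell (43.3% against 1.86% of all genes), 65 had a fold change above 0, and their median log2 fold change was 1.01 where that of all genes was -0.01. Genes that peak in mitosis often carry a short element, TTTGAA (the cell cycle genes homology region), bound by complexes that hold them silent until late in the cycle. It commonly lies downstream of a CCAAT box, the site of the factor NF-Y. Promoters of the 4 leading genes are shown for these elements. The stretches run from 100 bases before to 20 bases after the RefSeq start in GRCh38.p14, read 5′ to 3′ on the gene's strand. Capitals mark TTTGAA and CCAAT on either strand (TTCAAA and ATTGG are their reverse complements).
MKI67, chr10:128126404-128126523 (minus strand): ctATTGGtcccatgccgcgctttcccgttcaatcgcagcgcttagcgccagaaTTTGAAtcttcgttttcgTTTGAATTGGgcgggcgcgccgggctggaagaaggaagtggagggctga
KIF23, chr15:69414249-69414368 (plus strand): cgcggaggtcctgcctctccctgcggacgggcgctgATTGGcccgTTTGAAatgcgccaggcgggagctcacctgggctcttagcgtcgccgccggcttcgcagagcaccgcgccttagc
KIF4A, chrX:70290004-70290123 (plus strand): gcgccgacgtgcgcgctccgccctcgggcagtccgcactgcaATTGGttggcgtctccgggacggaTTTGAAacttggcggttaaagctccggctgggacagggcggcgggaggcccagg
ANLN, chr7:36389762-36389881 (plus strand): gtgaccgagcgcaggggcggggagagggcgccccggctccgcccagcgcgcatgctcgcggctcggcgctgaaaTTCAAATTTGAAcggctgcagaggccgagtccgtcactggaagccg
MKI67 has 2 copies of TTTGAA, one of which overlaps an ATTGG, and KIF23 and KIF4A have 1 of each with the ATTGG upstream. ANLN has TTCAAA and TTTGAA back to back and no CCAAT in this stretch. Over the whole 300-base windows (250 before to 50 after the start), TTTGAA on either strand occurred in 18 of the 24 mitosis genes called higher that had an entry (75.0%), in 38 of 58 tested mitosis genes (65.5%), in 10.1% of the 11572 tested genes with an entry, and in 15.4% of all 27305 windows. CCAAT occurred in 66.7%, 70.7%, 36.1% and 35.7% of the same sets, and both together in 54.2%, 51.7%, 4.12% and 6.08%. Among DNA replication genes TTTGAA was found in 1 of 40 windows (2.5%) and CCAAT in 57.5%. A match to these letters is a description of the sequence and shows no binding.

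MKI67, whose protein coats mitotic chromosomes and is the standard proliferation antigen, read 8.46 and 8.65 in U87MG and 10.20 and 10.18 in U87MGR and rose 3.11-fold (log2 fold change 1.64 ± 0.17, adjusted p = 0.0137). Its replicates lay close together in both lines. ANLN (anillin), the scaffold of the contractile ring, read 9.96 and 9.35 in U87MG and 11.83 and 11.51 in U87MGR (log2 fold change 2.02 ± 0.23, adjusted p = 0.0185), and it is the only one of the 67 genes on chromosome 7. The kinesins KIF23 and KIF4A, which build the central spindle, read 8.30 and 7.61 against 9.87 and 9.24 and 8.45 and 8.07 against 10.02 and 9.67 in U87MG against U87MGR (3.02-fold and 2.99-fold). Other called members included AURKA and AURKB (mitotic kinases, 1.33 and 0.94 on the log2 scale), CDK1 (0.96), the checkpoint kinases TTK and BUB1 (1.30 and 1.23) and FOXM1, the transcription factor that drives late cell cycle genes (1.02). At the other end of the list INCENP, MYBL2, BUB3 and CDC25B were between -0.08 and 0.02. These 10 genes were chosen after their values were seen. The list's median was 0.69 in U87MGR3 minus U87MG replicate 1. The fits called 41 members without U87MG replicate 1, 11 without replicate 2 and 0 without either U87MGR array, and the medians were 1.20, 0.79, 0.97 (U87MGR2 left out) and 1.09 (U87MGR3 left out). With 2 spike-in groups as a block 0 members were called (median 0.97), and with 3 groups 5 were (median 0.69).

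**Figure D3:**
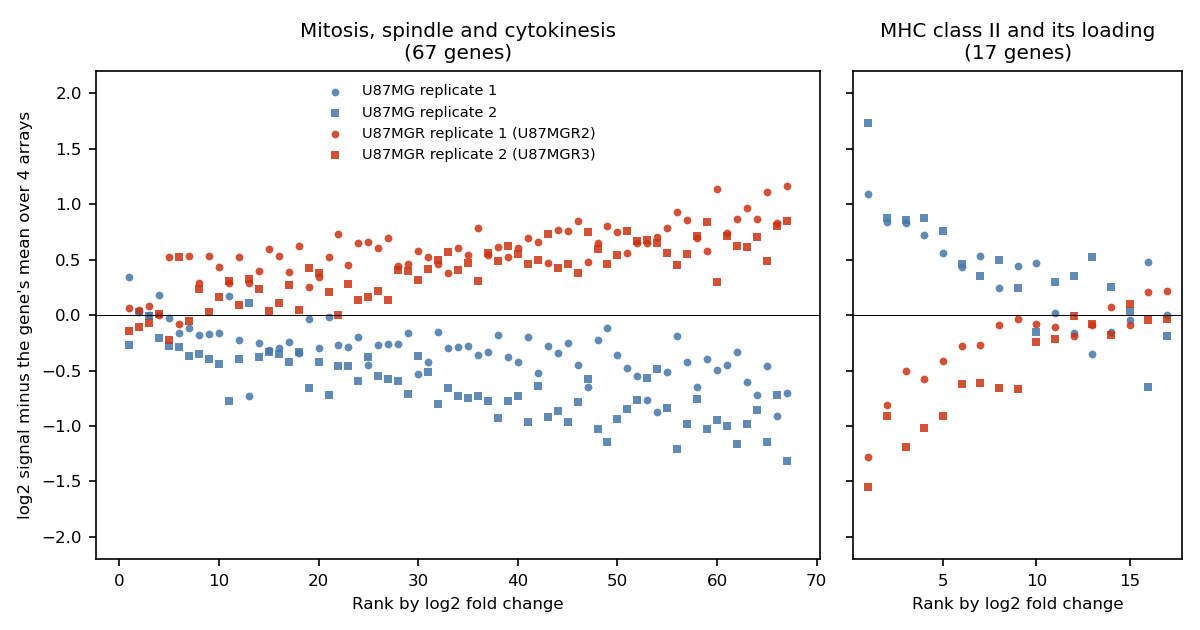
Each column of points is 1 gene and each point 1 array; the vertical axis is the log2 signal minus the mean of that gene over the 4 arrays, and genes are ranked by log2 fold change, separately for the 67 mitosis genes (left) and the 17 genes of MHC class II and its loading (right). The red U87MGR points lie above the blue U87MG points along most of the left panel, and at the left end of the right panel they lie below them, with a log2 fold change of -2.84 for HLA-DQA1.

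Calls were fewer in the other cell cycle lists. For DNA replication and entry into S phase, 3 of 46 tested genes rose and 0 fell, 43 were above 0 and the median was 0.63. ORC6, a subunit of the origin recognition complex, read 8.63 and 8.51 in U87MG and 9.77 and 9.87 in U87MGR (log2 fold change 1.25 ± 0.19, adjusted p = 0.0263); GINS1, part of the replicative helicase, and RRM2, the regulated subunit of ribonucleotide reductase, rose 2.17-fold and 2.16-fold. Leaving out U87MG replicate 1 gave 10 calls in this list and leaving out replicate 2 gave 1. Homologous recombination and Fanconi anaemia genes, which repair breaks and crosslinks at forks, had 5 of 27 higher and 0 lower. The rises are 18.5% of the list, against 1.86% of all genes, and its median was 0.54. FANCM, the helicase that recognises stalled forks, read 4.85 and 4.48 in U87MG and 6.32 and 6.17 in U87MGR (log2 fold change 1.58 ± 0.21, adjusted p = 0.0199). POLQ, the polymerase of microhomology end joining, read 7.20 and 7.02 in U87MG and 8.40 and 8.56 in U87MGR (log2 fold change 1.37 ± 0.17, adjusted p = 0.0185), and BRIP1 and RAD51AP1 rose 2.47-fold and 2.64-fold. None of the 28 genes of mismatch, excision and end-joining repair was called (1 higher and 2 lower when p under 0.05 was taken without adjustment). PRKDC had the largest difference upward, at 0.84 (adjusted p = 0.147). CDK inhibitors and D cyclins had 0 calls of 16 (3 higher and 2 lower unadjusted). CCND3 gave 1.17 with an adjusted p of 0.185 and CDKN2A -0.84 with 0.121. Of 25 p53 targets 0 were called (4 higher and 2 lower unadjusted), and MDM2 and TP53I3 both stood at 0.76 (adjusted p = 0.0686 and 0.0801). Further MDM2 probe sets gave -0.05, 0.04, -0.4 and 0.43. Histone genes had 2 of 13 higher (H2BC9 1.13, H2BC5 1.10), and probe sets of histone genes can share sequence. Among 46 chromatin enzymes HELLS, a remodeller needed for DNA methylation, rose 2.61-fold (7.40 and 7.46 against 8.57 and 9.06), as did SMARCA4, a remodelling ATPase, by 1.68-fold; another probe set of SMARCA4 gave -0.50. In ribosome biogenesis 2 of 31 rose: ODC1, the first enzyme of polyamine synthesis and a MYC target, went from 10.68 and 10.94 to 12.48 and 12.41 (log2 fold change 1.63 ± 0.18, adjusted p = 0.0182), and UTP20 rose 1.91-fold.

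Calls in MHC class II, which presents peptides to CD4 T cells, were all lower. Of 17 tested genes of class II and its loading, 5 fell and 0 rose (29.4% against 1.44% of all genes), with a median of -0.69. Class II promoters carry a CCAAT box, in either orientation, near their start as part of a composite element, and 3 of them are shown over the same stretch, with the same capitals.
HLA-DQA1, chr6:32637306-32637425 (plus strand): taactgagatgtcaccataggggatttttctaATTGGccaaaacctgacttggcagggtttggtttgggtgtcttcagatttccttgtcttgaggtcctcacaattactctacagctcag
CD74, chr5:150412891-150413010 (minus strand): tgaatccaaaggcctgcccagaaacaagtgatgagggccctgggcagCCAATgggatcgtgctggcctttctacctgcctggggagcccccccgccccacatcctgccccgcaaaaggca
HLA-DPB1, chr6:33075890-33076009 (plus strand): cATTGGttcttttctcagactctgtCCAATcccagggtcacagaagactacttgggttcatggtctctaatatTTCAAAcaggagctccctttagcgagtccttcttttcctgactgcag
CCAAT on either strand occurred in 10 of 13 class II list members with an entry (76.9%, against 36.1% of tested genes), and TTTGAA on either strand in 5 of the 13 (38.5%), HLA-DPB1 included. HLA-DQA1 read 8.10 and 8.74 in U87MG and 5.72 and 5.45 in U87MGR and fell 7.14-fold (log2 fold change -2.84 ± 0.25, adjusted p = 0.0117). CD74, the invariant chain that guides class II to the endosome, read 11.81 and 11.85 in U87MG and 10.16 and 10.06 in U87MGR and fell 3.3-fold (log2 fold change -1.72 ± 0.24, adjusted p = 0.0223). HLA-DRA, the conserved chain of the main class II molecule, read 11.61 and 11.64 in U87MG and 10.28 and 9.59 in U87MGR (log2 fold change -1.69 ± 0.30, adjusted p = 0.0357), and HLA-DPB1 read 10.80 and 10.96 in U87MG and 9.50 and 9.06 in U87MGR (log2 fold change -1.60 ± 0.20, adjusted p = 0.0185). All 4 remained above the array median in U87MGR, with the U87MGR3 array the lower one each time. HLA-DPA1 was the fifth call, at -1.31. CIITA, the transactivator that switches class II genes on, stood at -0.10 (adjusted p = 0.828), and the factors RFX5, RFXANK and RFXAP at 0.18, -0.32 and -0.32; these 5 were chosen after their values were seen. HLA genes are near-identical and polymorphic, so probe sets can share signal between them. In U87MGR3 minus U87MG replicate 1 the list's median was -0.90. Without U87MGR2 the median was -1.01 and without U87MGR3 -0.38, with 0 calls in both, and without U87MG replicates 1 and 2 there were 3 and 2 calls, all among the 5. With 2 spike-in groups as a block 0 members were called (median -1.01), and with 3 groups 2 were (median -0.90). In MHC class I and its peptide loading 0 of 20 were called by limma (0 higher and 9 lower unadjusted), 18 of the 20 were below 0 and the median was -0.53. CALR and PDIA3, chaperones of loading, stood at -1.22 and -1.05 (adjusted p = 0.26 and 0.0879).

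Interferon-stimulated genes were divided. Of 40 tested, 3 rose and 4 fell, with a median of -0.25; without U87MG replicate 2 there were 1 and 0. IFITM3, a membrane protein that blocks virus entry, read 10.13 and 10.07 in U87MG and 8.42 and 8.89 in U87MGR (log2 fold change -1.44 ± 0.24, adjusted p = 0.0326), and IFITM2 fell 2.68-fold. IRF7, an interferon regulatory factor, read 7.31 and 7.56 in U87MG and 6.40 and 6.22 in U87MGR (log2 fold change -1.12 ± 0.17, adjusted p = 0.0281), and the antiviral GTPase MX2 fell 2.45-fold. The 2 IFITM genes are close copies, and their probe sets may share signal. SAMD9 read 7.35 and 7.24 in U87MG and 8.32 and 8.33 in U87MGR (log2 fold change 1.03 ± 0.15, adjusted p = 0.024). Its neighbour SAMD9L and the ubiquitin ligase HERC6 rose as well (1.32 and 0.97). SAMD9 and SAMD9L both lie on chromosome 7.

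The interleukin-1 family had 4 of 19 tested genes lower (21.1% against 1.44% of all genes) and 0 higher. IL36B, an agonist of the IL-36 receptor, was abundant in the parent line and read 10.94 and 11.19 in U87MG and 7.77 and 6.69 in U87MGR, a 14.3-fold fall (log2 fold change -3.83 ± 0.50, adjusted p = 0.0194). IL1RN, the IL-1 receptor antagonist, read 9.30 and 8.79 in U87MG and 5.54 and 5.54 in U87MGR (log2 fold change -3.51 ± 0.32, adjusted p = 0.0121). Its other probe sets gave smaller falls, at -0.95 and -0.98. An agonist and an antagonist thus fell together. PYCARD, the inflammasome adaptor, read 6.30 and 6.56 in U87MG and 4.56 and 4.03 in U87MGR (log2 fold change -2.14 ± 0.23, adjusted p = 0.0159), and the decoy receptor IL1R2 fell as well (-0.98). PYCARD was below the test signal in both U87MGR arrays. Of 28 chemokines and inflammatory cytokines 2 fell and 0 rose. CCL2, which attracts monocytes, read 8.56 and 8.86 in U87MG and 5.82 and 5.86 in U87MGR (log2 fold change -2.87 ± 0.27, adjusted p = 0.0125). TSLP, an epithelial alarm cytokine, read 10.40 and 10.06 in U87MG and 8.73 and 8.80 in U87MGR (log2 fold change -1.46 ± 0.27, adjusted p = 0.0393). In the NF-kappa-B list 1 of 27 fell, the mitochondrial superoxide dismutase SOD2 (-1.30), and the list's median was 0.16. The complement proteases C1R and C1S fell 3.04-fold and 2.83-fold, from 10.40 and 11.09 to 9.20 and 9.07 and from 10.83 and 11.27 to 9.56 and 9.53, and the related C1RL fell 1.94-fold. In the same list of 25 genes PROCR, the endothelial protein C receptor, rose 2.17-fold (9.52 and 9.43 against 10.79 and 10.39), along with SERPIND1.

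In the extracellular protease systems the genes of urokinase and its receptor rose. PLAU (urokinase), the protease that activates plasminogen, read 9.82 and 9.70 in U87MG and 11.71 and 11.72 in U87MGR and rose 3.87-fold (log2 fold change 1.95 ± 0.34, adjusted p = 0.0357). PLAUR, its cell surface receptor, read 9.91 and 9.57 in U87MG and 11.38 and 11.06 in U87MGR and rose 2.78-fold (log2 fold change 1.48 ± 0.26, adjusted p = 0.0357). These were the 2 calls among 11 genes of the system, whose median was 0.08. Without U87MG replicate 1 there was 1 call in the list and without replicate 2 there were 0. Among 40 metalloproteinases and inhibitors there was 1 rise, ADAMTS6 (5.56 and 4.50 against 7.01 and 7.34; log2 fold change 2.15 ± 0.37, adjusted p = 0.0357), and 1 fall, TIMP3. Serpins and cystatins had 2 of 19 higher (SERPINB7 and SERPIND1) and 1 lower (CSTA).

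The matrix list had calls in both directions, 2 of 58 higher and 4 lower, with a median of -0.19; without U87MG replicate 1 the counts were 5 and 8. VCAN (versican), a large proteoglycan of loose matrix, read 9.28 and 9.53 in U87MG and 11.05 and 11.62 in U87MGR and rose 3.82-fold (log2 fold change 1.93 ± 0.22, adjusted p = 0.0184). SDC1 (syndecan-1), a cell surface proteoglycan, rose 2.32-fold (9.92 and 9.79 against 11.37 and 10.77). EFEMP1 was the largest of the falls. The 2 rises and 4 falls are 3.45% and 6.9% of the list, against 1.86% and 1.44% of all genes. MFAP4, a microfibril protein, read 9.07 and 8.51 in U87MG and 6.86 and 6.74 in U87MGR (log2 fold change -1.98 ± 0.24, adjusted p = 0.0185). DCN (decorin), a small proteoglycan that binds collagen, read 8.72 and 9.25 in U87MG and 7.40 and 7.19 in U87MGR (log2 fold change -1.69 ± 0.21, adjusted p = 0.0185). EMILIN2, an elastic fibre protein, fell as well (-1.78), with 0.26 on another probe set. COL13A1 was the single call among 24 collagen chains and was higher. The hyaluronan list had 1 rise of 12, HMMR (9.94 and 9.38 against 11.22 and 10.92; log2 fold change 1.41 ± 0.22, adjusted p = 0.0296), the hyaluronan-mediated motility receptor, which is also a mitotic spindle protein and a member of the mitosis list. Of 32 integrins and immunoglobulin-type adhesion receptors 0 were called (3 higher and 2 lower unadjusted). ITGA2, a collagen receptor subunit, gave 1.30 (adjusted p = 0.0579) and NCAM1 -1.78 (adjusted p = 0.183).

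In the list of cadherins and catenins, proteins of cell contacts, 2 of 21 fell and 0 rose. The protocadherin PCDH18 read 7.93 and 8.51 in U87MG and 5.98 and 6.72 in U87MGR (log2 fold change -1.86 ± 0.37, adjusted p = 0.0477). PCDH7 read 8.20 and 8.37 in U87MG and 7.33 and 7.45 in U87MGR (log2 fold change -0.90 ± 0.16, adjusted p = 0.0357). Without U87MG replicate 2 neither was called, and PCDH9 and PCDH17 were the 2 calls, both higher. Among 27 genes of desmosomes, tight junctions and epithelial keratins PPL fell and CLDN12, a claudin encoded on chromosome 7, rose 2.24-fold (9.44 and 9.44 against 10.75 and 10.46). In the actin and motility list 5 of 51 rose and 0 fell (9.8% against 1.86%), with a median of 0.08; without U87MG replicate 2 there was 1 rise. DIAPH3, a formin that builds straight filaments, read 8.31 and 7.95 in U87MG and 9.40 and 9.32 in U87MGR (log2 fold change 1.23 ± 0.18, adjusted p = 0.0239). TLN1 (talin), which links integrins to actin, read 8.75 and 8.84 in U87MG and 9.70 and 10.26 in U87MGR (log2 fold change 1.19 ± 0.22, adjusted p = 0.0384). PTK2, the focal adhesion kinase, read 9.35 and 9.59 in U87MG and 10.25 and 10.62 in U87MGR (log2 fold change 0.97 ± 0.19, adjusted p = 0.0481). The crosslinker ACTN4 and a second formin, DIAPH1, were the other calls, at 1.05 and 0.91. Of 15 Eph receptors and ephrins, which signal contact with neighbouring cells, 2 rose. EPHA2 read 7.07 and 5.72 in U87MG and 8.66 and 8.95 in U87MGR (log2 fold change 2.41 ± 0.43, adjusted p = 0.0373), and EPHA5 read 4.49 and 4.50 in U87MG and 6.50 and 5.70 in U87MGR (log2 fold change 1.61 ± 0.27, adjusted p = 0.0345). In U87MG both EPHA5 arrays were below the test signal, so the gene passed the filter only through the derivatives' arrays. Of 41 semaphorin, netrin and Slit genes, SEMA3A, a secreted repellent of axons encoded on chromosome 7, rose 2.74-fold (6.21 and 5.86 against 7.12 and 7.85), as did DPYSL3, a collapsin response mediator (8.38 and 7.49 against 9.38 and 9.97), and the secreted guidance cue SLIT3 fell 3.29-fold (8.54 and 8.15 against 6.89 and 6.36).

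Signalling lists had few calls. Growth factors and receptors had 3 of 51 higher and 1 lower (5.88% and 1.96%, against 1.86% and 1.44% of all genes). MET, the hepatocyte growth factor receptor, read 11.48 and 11.87 in U87MG and 12.70 and 12.55 in U87MGR (log2 fold change 0.94 ± 0.18, adjusted p = 0.0444). PDGFA, a platelet-derived growth factor, read 6.44 and 6.52 in U87MG and 7.26 and 7.59 in U87MGR (log2 fold change 0.94 ± 0.17, adjusted p = 0.0384), with 0.14 on another probe set. NRG1, a ligand of ERBB receptors, read 6.50 and 6.39 in U87MG and 7.93 and 7.79 in U87MGR (log2 fold change 1.41 ± 0.22, adjusted p = 0.0294), with -0.45 on another probe set. Further MET probe sets gave smaller rises, at 0.43, 0.54 and 0.36. MET and PDGFA lie on chromosome 7. PDGFRB, a receptor for such growth factors and a pericyte marker, fell 2.56-fold (8.78 and 8.82 against 7.57 and 7.33). Of 53 BMP and TGF-beta genes 2 rose. GREM1, a secreted BMP antagonist, read 10.04 and 9.29 in U87MG and 11.66 and 11.03 in U87MGR (log2 fold change 1.68 ± 0.30, adjusted p = 0.0371). SMURF1, a ubiquitin ligase on chromosome 7, stood at 1.28, and at 0.22 on another of its probe sets. DUSP10, a phosphatase of stress kinases, fell 2.78-fold (8.73 and 8.82 against 7.26 and 7.34; adjusted p = 0.0137), and it was the single call of 44 in its list. In the G protein list RGS4 and RGS20 rose (3.26 and 0.98, with 0.01 on another RGS20 probe set) and LPAR1, a lysophosphatidic acid receptor, fell (-1.26), of 38 tested. HEY1 was the 1 call of 31 Notch genes, lower at -0.98.

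Among Wnt ligands, receptors and secreted modulators 1 of 37 was called: FZD2, a Frizzled receptor, read 8.72 and 8.64 in U87MG and 7.41 and 7.22 in U87MGR and fell 2.57-fold (log2 fold change -1.36 ± 0.20, adjusted p = 0.0243). FZD4, the Frizzled receptor named in the series' title, read 6.95 and 6.45 in U87MG and 6.96 and 7.07 in U87MGR, a log2 fold change of 0.31 ± 0.21 (SE) with an adjusted p of 0.448; U87MG replicate 1 was level with U87MGR2. Of 28 intracellular and target genes of the pathway 0 were called (4 higher and 2 lower unadjusted). LEF1, a transcription factor of the pathway, stood at 1.23 (adjusted p = 0.058), with 0.19 on another probe set. TNFRSF19, a receptor that is a Wnt target in other tissues, stood at 1.97 (adjusted p = 0.0571), with 0.28 and 0.58 on other probe sets.

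Astrocyte genes had 2 of 16 lower and 1 higher, with a median of -0.30. GLUL, the glutamine synthetase by which astrocytes clear ammonia and glutamate, read 10.30 and 10.97 in U87MG and 8.60 and 8.33 in U87MGR and fell 4.49-fold (log2 fold change -2.17 ± 0.24, adjusted p = 0.0182). SLC1A3, a glutamate transporter of the same cells, read 10.00 and 10.35 in U87MG and 8.86 and 8.69 in U87MGR and fell 2.64-fold (log2 fold change -1.40 ± 0.18, adjusted p = 0.0185). SOX9, described above, was the member that rose. Of 9 oligodendrocyte, 14 neuronal and 9 microglial genes tested 0 were called in each list. At an unadjusted p under 0.05 the lists had 1 higher and 0 lower, 3 higher and 2 lower and 1 higher and 1 lower. In the endothelial and pericyte list ABCC9 rose (0.91) and PDGFRB fell.

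Metabolic and stress genes were lower where they were called. In the list of NRF2 targets, aldo-keto reductases and efflux pumps, 6 of 48 fell and 0 rose (12.5% against 1.44%), with a median of -0.25. AKR1C3, which reduces steroids and prostaglandins, read 10.64 and 10.74 in U87MG and 8.74 and 8.36 in U87MGR and fell 4.42-fold (log2 fold change -2.14 ± 0.18, adjusted p = 0.00949). AKR1C2 and AKR1C1 read 12.12 and 12.22 against 10.74 and 10.21 and 12.97 and 13.04 against 11.74 and 11.43 in U87MG against U87MGR (3.24-fold and 2.67-fold). AKR1B10, SOD2 and TKT, an enzyme of the pentose phosphate pathway, were the other calls. The 3 AKR1C genes are near-identical copies whose probe sets can share signal, and another AKR1C1 probe set gave 0.01. Retinoid, steroid and prostaglandin genes had 5 of 33 lower, with the 3 AKR1C genes in both lists. HSD11B1, which regenerates active glucocorticoid, read 8.74 and 7.88 in U87MG and 5.55 and 5.94 in U87MGR (log2 fold change -2.56 ± 0.34, adjusted p = 0.0207). PLAAT4, a retinoid-induced gene, fell 4.48-fold. In the unfolded protein and ATF4 list 2 of 44 fell and 0 rose. TRIB3, a pseudokinase of the stress response, read 9.64 and 9.63 in U87MG and 8.05 and 7.64 in U87MGR (log2 fold change -1.80 ± 0.26, adjusted p = 0.0239). DDIT3 (CHOP), a transcription factor of that response, read 10.99 and 11.04 in U87MG and 9.88 and 9.88 in U87MGR (log2 fold change -1.14 ± 0.23, adjusted p = 0.0477). The list's median was -0.54 overall and -1.08 in U87MGR3 minus U87MG replicate 1. Without U87MG replicate 1 there was 1 call lower and 1 higher (median -0.21), and without replicate 2 there were 3 lower (median -0.74). Cholesterol and fatty acid synthesis had 1 of 33 lower, the sterol transfer protein STARD4 (8.71 and 9.21 against 7.78 and 7.53; log2 fold change -1.31 ± 0.21, adjusted p = 0.0294), with a median of -0.46. Without U87MG replicate 1 there were 9 lower, and without replicate 2 there were 0 lower and 1 higher, so these counts depended on which parental array was used. MXI1, a MYC antagonist, was the 1 call of 46 hypoxia and glycolysis genes (-1.24), and the list's median was 0.02, or -0.23 without U87MG replicate 2. Autophagy and lysosome genes had 2 of 38 lower, GABARAPL1 (8.48 and 8.74 against 7.20 and 7.13; log2 fold change -1.45 ± 0.17, adjusted p = 0.0185) and the cathepsin CTSF (-1.09). No call was made among 46 subunits of oxidative phosphorylation, 36 ribosomal proteins, 29 proteasome and ubiquitin genes or 35 apoptosis regulators. Their medians lay between -0.08 and 0.11, and at an unadjusted p under 0.05 they had 0 higher and 3 lower; 0 higher and 0 lower; 3 higher and 0 lower; and 6 higher and 3 lower, in that order.

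Transporters had 2 of 54 higher and 2 lower (3.7% each, against 1.86% and 1.44% of all genes), SLC4A4 and SLC1A3 among them. CACNA2D1, a calcium channel subunit encoded on chromosome 7, rose 2.33-fold (8.13 and 8.36 against 9.50 and 9.42; 0.06 on another probe set) and the amino acid transporter SLC6A15 fell 2.08-fold (8.75 and 9.01 against 7.97 and 7.67), though another SLC6A15 probe set gave 0.29. IRX5, a homeobox factor, fell 2.81-fold (8.84 and 8.58 against 7.49 and 6.95) and was the 1 call of 36 in its list. AMOTL2, a target and regulator of YAP, rose 1.88-fold (8.50 and 8.45 against 9.31 and 9.46). With RBMS3 it made 2 rises among 29 YAP and TEAD targets, whose median was 0.37.

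**Figure D4:**
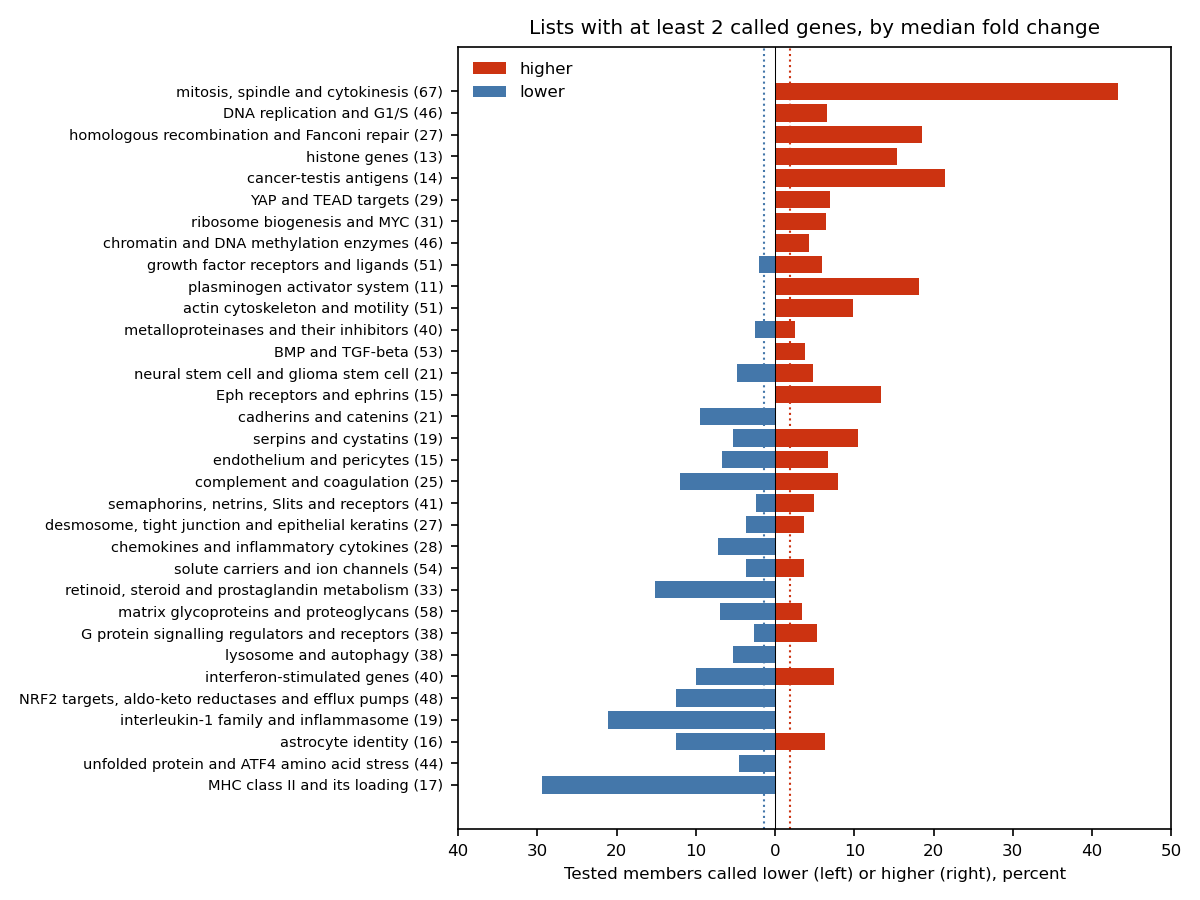
Percent of tested members called higher (red, to the right) or lower (blue, to the left) in each list with at least 2 called genes, ordered by median log2 fold change; the number of tested members is in brackets, and dotted lines mark the 1.86% and 1.44% of all genes. The mitosis list has the longest bar to the right, 43.3%, and the MHC class II list the longest to the left, 29.4%.

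Genes of chromosome 7 were higher on balance, a pattern examined after its values were seen and not tested as a whole. Of 679 tested genes on chromosome 7, 52 rose (7.66% against 1.86% of all genes) and 1 fell, AKR1B10 (-1.16). Chromosome 7 holds 4.68% of the genes tested and 19.3% of those called higher; outside it 218 of 13819 genes rose (1.58%). The median log2 fold change of its genes was 0.24, with 481 of the 679 above 0 (70.8%), while the medians of the other autosomes and of X ran from -0.06 to 0.08. In windows of about 50 consecutive tested genes, all 14 windows of chromosome 7 had a median above 0, from 0.08 to 0.47, and the 274 windows elsewhere lay between -0.25 and 0.19. Relative to each gene's mean over the 4 arrays, the median of chromosome 7 was -0.12 and -0.15 in the U87MG arrays and 0.10 and 0.14 in the U87MGR arrays, so that both U87MGR arrays stood above both U87MG arrays. In U87MGL, on the same scale, it was -0.07 and -0.10. The median was 0.25 in U87MGR3 minus U87MG replicate 1, and it lay between 0.21 and 0.28 when any 1 array was left out; the number of genes called ran from 0 to 66 in those fits, with 1 without U87MGR2 and 0 without U87MGR3. U87MGL minus U87MG, which shares the parental arrays, gave 0.01.

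The genes with the largest rises on chromosome 7 besides ANLN, chosen after their values were seen, were of several kinds. HIP1, an endocytic adaptor, read 7.67 and 7.15 in U87MG and 9.39 and 9.38 in U87MGR (log2 fold change 1.97 ± 0.21, adjusted p = 0.0171). FBXL13, an F-box protein gene, rose 3.18-fold (log2 fold change 1.67, adjusted p = 0.0185). The zinc finger genes ZNF138, ZNF273 and ZNF107 rose 3.48-fold, 3.2-fold and 3.19-fold, and members of this family are similar enough for probe sets to share signal. In both U87MG arrays ZNF273 and ZNF107 were below the test signal. They passed the filter only through the derivatives' arrays, as did SLC26A4. ING3, a subunit of a histone acetyltransferase complex, read 7.77 and 7.71 in U87MG and 9.69 and 9.18 in U87MGR (log2 fold change 1.70 ± 0.20, adjusted p = 0.0185). DBF4, the activating subunit of the kinase that fires replication origins, read 9.06 and 8.89 in U87MG and 10.37 and 10.82 in U87MGR (log2 fold change 1.62 ± 0.19, adjusted p = 0.0185), and SLC26A4, an anion exchanger, went from below the test signal in both U87MG arrays (4.23 and 3.89) to 5.37 and 6.01. In U87MGL minus U87MG, limma also called ANLN (1.65, adjusted p = 0.0182), HIP1 (1.47, 0.0187), FBXL13 (1.73, 0.0118), ING3 (1.40, 0.0182) and SLC26A4 (2.85, 0.00599) higher. DBF4 (0.80), ZNF138 (0.72), ZNF273 (0.62) and ZNF107 (0.95) were not called there. None of these genes was called between the derivatives.

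**Figure D5:**
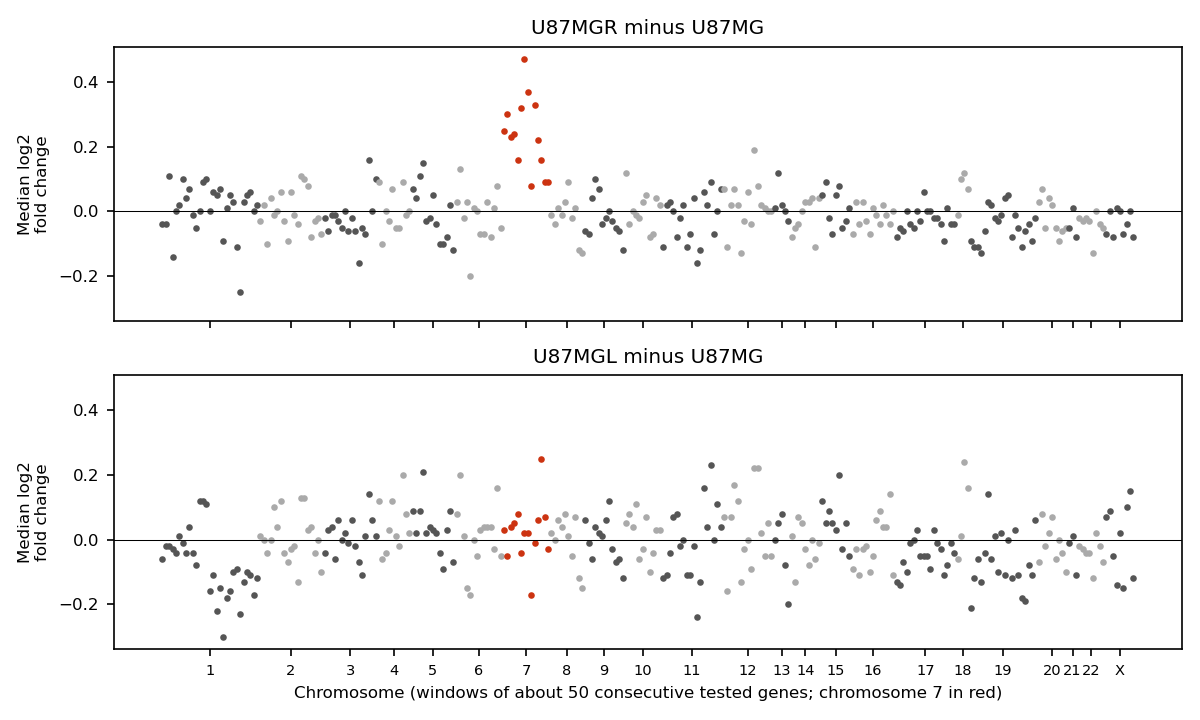
Each point is the median log2 fold change of about 50 consecutive tested genes, in chromosome order along the horizontal axis, for U87MGR minus U87MG (upper panel) and U87MGL minus U87MG (lower panel), which share the U87MG arrays. The 14 red points of chromosome 7 lie between 0.08 and 0.47 in the upper panel and between -0.17 and 0.25 in the lower one.

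The non-invasive line U87MGL, which also went through 4 rounds of transplantation, was set beside these results after the values were seen. Directly compared, U87MGR had 6 genes higher and 17 lower than U87MGL (limma, 0.0413% and 0.117% of the genes tested; 567 and 717 at p under 0.05 without adjustment). U87MGL minus U87MG, which shares the parental arrays and so is not independent of the comparison above, had 438 higher and 261 lower (3.02% and 1.8%).

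Several leading genes, chosen after their values were seen, differed from the parent line in U87MGL too. Others were not called by limma in U87MGL minus U87MG. Among them PPL gave -1.43 (adjusted p = 0.26), ENPP5 0.06 (0.942) and MAGEC2 0.33 (0.655). The U87MGL arrays of PPL lay far apart, at 9.30 and 6.81. ABLIM1 gave 0.38 (0.653), DDAH1 1.27 (0.111) and IGDCC4 -1.52 (0.0525). MKI67 was 1.63 in U87MGL minus U87MG (adjusted p = 0.00907), beside 1.64 in U87MGR minus U87MG, and the difference between the derivatives was 0.01 (adjusted p = 0.994). EFEMP1 gave -5.04 (adjusted p = 0.00814) in U87MGL minus U87MG and -0.10 between the derivatives (adjusted p = 0.967). HLA-DQA1 gave -2.28 and -0.55 in the same 2 comparisons, FOXF1 3.48 and 0.15, SERPINB7 2.96 and 0.67, PLAU 2.04 and -0.09, VCAN 1.97 and -0.04, and CHI3L1 -4.13 and 1.08. None of these genes was called between the derivatives. In the mitosis list 35 of 67 genes were higher and 0 lower in U87MGL minus U87MG, with a median of 0.95, and the median between the derivatives was -0.02 with 0 calls. The class II list had 5 of 17 lower and 0 higher, with a median of -0.39, and -0.07 with 0 calls between the derivatives.

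MAGEC1, PYCARD and DUSP10 were called by limma between the derivatives as well. DUSP10 was -1.23 in U87MGR minus U87MGL (adjusted p = 0.0471) and -0.25 in U87MGL minus U87MG (adjusted p = 0.359). MAGEC1 was 2.70 higher in U87MGR than in U87MGL on the log2 scale (adjusted p = 0.0142). PYCARD read 7.13 and 7.43 in U87MGL, a difference of -2.99 between U87MGR and U87MGL (adjusted p = 0.0067) and of 0.85 between U87MGL and U87MG (adjusted p = 0.0839). TIMP3 read 10.81 and 10.51 in U87MGL, -0.37 from the parent line (adjusted p = 0.771), while the difference between the derivatives, -3.79, did not pass (adjusted p = 0.132). C11orf96 differed by -3.08 between the derivatives, also without passing (adjusted p = 0.0524). It was called lower by limma in U87MGL minus U87MG as well, at -2.44 (adjusted p = 0.023).

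Of the 478 called genes outside the Y chromosome, 134 belonged to a list and 344 to none. In 6 called genes both U87MG arrays reached the test signal and both U87MGR arrays were below it: ACTRT3, ENPP5, FBXO41, IGDCC4, PPARG and PYCARD. PPARG, the nuclear receptor of fat cell differentiation, read 5.92 and 5.93 in U87MG and 4.71 and 4.64 in U87MGR (log2 fold change -1.25 ± 0.15, adjusted p = 0.0185). In 11 the order was the reverse, EPHA5 and SLC26A4 among them. SGO1, the protector of centromere cohesion, read 4.61 and 4.44 in U87MG and 6.04 and 6.27 in U87MGR (log2 fold change 1.64 ± 0.16, adjusted p = 0.0137). NEXN, an actin-binding protein, read 4.68 and 4.36 in U87MG and 6.04 and 6.47 in U87MGR (log2 fold change 1.74 ± 0.22, adjusted p = 0.0185). The test signal is a filter and not a detection limit, so these genes are low, not absent, on one side. They were chosen after their values were seen. The filter is a mean over the 6 arrays. The 11 genes passed it only through the U87MGR and U87MGL arrays, and the 6 only through the U87MG and U87MGL arrays. Their being tested thus rested on arrays where they were high, so the crossing is no separate support for a difference. Where a called gene had further probe sets, 272 of 293 had the same sign for genes called higher (92.8%) and 144 of 159 for genes called lower (90.6%), against 66.7% for genes not called. Their sizes were smaller: the further probe sets had median log2 fold changes of 0.74 and -0.90. The main probe sets of all called genes had medians of 1.22 and -1.30.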

How the data were processed

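Biotin-labelled cRNA of 6 samples was hybridised to 1-colour arrays of 54675 probe sets, per the labels' protocols. The authors deposited log2 signals that already shared a common scale; their normalization is not stated in the labels used here. Gene symbols came from the array's annotation table, updated by gene number to RefSeq (GRCh38.p14, 41043 matched): 41097 probe sets had 1 symbol, 1801 several and 11777 none, and only the first kind was used. The probe set with the highest mean stood for its gene. Genes with a mean below 4.73, the 40th percentile of all probe sets, were not tested (5262 genes).

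From these values limma 3.58.1 (R 4.3.3) fitted a mean per line over the 6 arrays, which gave 3 residual and 4.05 prior degrees of freedom and a median SE of 0.19 for a log2 fold change; moderated two-sided p-values were adjusted by Benjamini-Hochberg, and genes under 0.05 were called. Precision is limited by having 2 arrays per line. The fit was tested on simulated data. Named genes are the 16 largest rises and falls among called genes whose U87MGR and U87MG arrays did not overlap. Up to 4 rises and 4 falls in each list, up to 2 values where a list had no call, and FZD4 were added. Y-linked genes and XIST are left out. The members, the 57 lists and these rules were chosen with earlier results of these data known, so counts over lists are descriptions. No test of a list as a whole was made. Promoters were read from RefSeq, and a gene without an entry was left out of the shares. Alternatives were the arrays in the fit, filter, normalization, choice of probe set, variance trend, blocks and each array left out.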

Additional observations from a re-analysis of the deposited data

How the results depend on the processing

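Counts of genes higher and lower in U87MGR (270 and 209) stayed within 1.5 times under no filter on low signal, a filter at the 60th percentile, quantile normalization, the mean of all probe sets and a variance trend. The genes called were not all the same. With the mean of all probe sets, 163 of the 270 and 160 of the 209 were called again, the fewest among these settings. The counts fell to 111 and 122 with only the 4 arrays of the 2 lines. With the probe set of highest variance they were 116 and 122, of which 84 and 93 were among the 270 and 209. A block for 2 spike-in groups gave 5 and 6, and one for 3 groups 96 and 135, of which 42 and 57 were among the 270 and 209. With the replicate block they were 188 and 175; the titles' numbers are not stated to pair cultures, and the deviations of same-numbered arrays correlated at 0.11. Leaving out 1 array gave 1 to 486 higher and 0 to 391 lower. With the probe set of highest variance SLC6A15 turned from lower to 0.29 and TKT to 0.64, neither of them called. With 2 arrays a line, the fits without a U87MGR array assume that the lone array varies like the others.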
